A study of Homo sapiens with 60 samples.

Results

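The genes described here are 10 members of the BCL2 family, the proteins that decide whether the outer membrane of the mitochondrion is opened during apoptosis. They were taken by symbol from a count table of 60675 genes, and all 10 were present and passed the filter on low counts. The 7 death-promoting members were BCL2L11, BBC3, PMAIP1, BMF and BID, which are BH3-only proteins, and the effectors BAX and BAK1. The 3 protective members were BCL2, BCL2L1 and MCL1. Their RNA was followed in SW1783, an established human astrocytoma cell line kept in Leibovitz's L-15 medium, in 60 libraries made after 24 h with a herbal extract or with the vehicle, dimethyl sulfoxide. The question the series text poses is how expression differs between each dose of an extract and the vehicle.

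In the mitochondrial pathway, BAX and BAK1 form pores that let cytochrome c out and start the caspases. BCL2, BCL-xL (from BCL2L1) and MCL1 hold these effectors and the BH3-only proteins in check, and the BH3-only proteins, made or activated under stress, occupy the protective proteins or act on the effectors directly. Much of this control lies in protein binding, turnover and cleavage, which RNA levels do not show, and glial tumour cells are known to lean on BCL-xL and MCL1.

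Doses of 500, 100 and 20 µg/mL, called here high, medium and low, were used for 5 extracts. Yijin-tang (3 libraries per dose) and Soshiho-tang (2 per dose) are traditional mixtures of herbs and were extracted in water. Zizyphi Semen, Longan Arillus and Liriopis seu Ophiopogonis Tuber are single herbs extracted in ethanol, with 3 libraries per dose. Ethanol extracts were also made of Schisandrae Fructus (310, 62 and 12.4 µg/mL, 3 libraries per dose), Polygalae Radix (30, 6 and 1.2 µg/mL) and Aucklandiae Radix (160, 32 and 6.4 µg/mL), the last 2 herbs with 1 library per dose. Per the design text, an extract that inhibited the cells below the standard top dose was given at its own mildly inhibitory dose and at dilutions of it, so top doses do not match between all extracts. The vehicle was measured in 3 libraries.

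Libraries held 18.73 to 35.52 M counts. By the first part of their names, the vehicle libraries form a set apart from all treated ones, and the vehicle concentration differs between the sample labels and the design text. Treatment and library set thus cannot be told apart in a comparison with the vehicle, and each extract's own low dose, of the same set, was the main reference. No label says that the libraries of a group came from separate cultures, so the p-values measure the spread between libraries only, which may be technical. The third medium-dose library of Longan Arillus stood apart from the other 2, for example with 2.99 CPM of BMF against 4.57 and 4.37. The member count and the BMF call at that dose against the vehicle are given with and without it. Counts of libraries outside the vehicle range, and the patterns over groups, are given with it only.

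Of 10 astroglial and neural stem cell markers, VIM, SOX9, SLC1A3 and NES lay above 1 CPM (counts scaled to library size) in the vehicle. GFAP, a defining astrocyte marker, did not exceed 0.312 CPM in any library, and S100B not 0.281 CPM, so the line's astrocytic label rested on few of them. All 5 fibroblast markers were above 1 CPM, and their summed level was 5380 to 5590 CPM in the vehicle, 2040 to 2090 CPM at the high dose of Soshiho-tang, 1590 CPM at that of Aucklandiae Radix and 800 CPM at that of Polygalae Radix. In the other groups it lay between 3600 and 5610 CPM. Most of this sum was COL1A1 and COL1A2 (3680 and 1740 CPM in the vehicle), so it mainly reads these 2 genes. At the high dose of Schisandrae Fructus the summed neuronal markers, of which 2 of 5 were above 1 CPM in the vehicle, stood at 23.5 to 28.2 CPM against 51.8 to 55.2 CPM at its low dose. The part of these shifts in the results below was not tested. In bulk RNA, fewer cells of a kind and less RNA per cell cannot be told apart.

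The promoters of the 3 members with the largest differences between doses are shown because all 3 changed with both Soshiho-tang and Schisandrae Fructus: PMAIP1 and BBC3 rose and BMF fell. RefSeq (GRCh38.p14) lists a promoter for 9 of the 10 members, and more than 1 for some. BMF has 2, of which the one at chr15:40106967-40107216 was searched but is not shown. Each line gives the 250 bases before the annotated start, 5′ to 3′ on the gene's strand, in lower case, with capitals for the 1 motif match found.
PMAIP1, chr18:59899746-59899995, plus strand: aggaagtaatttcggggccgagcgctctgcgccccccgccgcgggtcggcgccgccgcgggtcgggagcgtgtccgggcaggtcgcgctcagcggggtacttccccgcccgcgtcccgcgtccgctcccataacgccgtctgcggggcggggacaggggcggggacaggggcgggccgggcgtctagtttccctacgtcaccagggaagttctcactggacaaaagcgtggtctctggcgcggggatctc
BMF, chr15:40108880-40109129, minus strand: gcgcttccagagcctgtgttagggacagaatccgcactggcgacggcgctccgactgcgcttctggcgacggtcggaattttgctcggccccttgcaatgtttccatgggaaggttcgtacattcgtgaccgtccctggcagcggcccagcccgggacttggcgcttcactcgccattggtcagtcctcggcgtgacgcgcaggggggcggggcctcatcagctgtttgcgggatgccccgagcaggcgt
BBC3, chr19:47232668-47232917, minus strand: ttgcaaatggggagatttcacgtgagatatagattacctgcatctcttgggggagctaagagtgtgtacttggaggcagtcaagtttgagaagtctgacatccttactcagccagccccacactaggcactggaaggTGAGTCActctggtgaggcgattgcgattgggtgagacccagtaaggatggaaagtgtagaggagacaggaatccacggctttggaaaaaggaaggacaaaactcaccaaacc
Searched on both strands, from 250 bases before to 50 after the start, were TGATGNAAN (the composite site bound by ATF4 with CEBP factors), TGACGTCA (the CRE) and TGACTCA (the AP-1 site). In all promoter entries of the members the only match was an AP-1 site in that of BBC3, on the strand opposite to the gene and 113 to 107 bases before the start. Of 35116 promoters of this length, 4.95% hold TGACTCA, 3.61% TGATGNAAN and 1.85% TGACGTCA. The match is a description of letters in a window and no site of binding.

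Scaled to exon length, the protective RNAs MCL1 and BCL2L1 were the most abundant of the 10 in vehicle-treated cells. MCL1 had 42.6 ± 1.6 CPM per kb (SD, n = 3) and BCL2L1 36.2 ± 2, followed by the effectors BAX at 21.2 ± 1 and BAK1 at 15.2 ± 0.74. PMAIP1 stood at 14.2 ± 0.8, and its range over the 3 libraries (13.7 to 15.2) overlapped that of BAK1 (14.5 to 15.9), the only neighbours in this order that overlapped. BID followed at 4.57 ± 0.041 CPM per kb, BCL2L11 at 1.49 ± 0.076, BMF at 0.972 ± 0.14, BCL2 at 0.719 ± 0.07 and BBC3 at 0.134 ± 0.019. The third protective gene, BCL2, was thus near the bottom of the order, and BBC3 rested on 7 to 10 reads per vehicle library. Length here is the union of annotated exons, which need not be the transcripts these cells use.

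**Figure D1:**
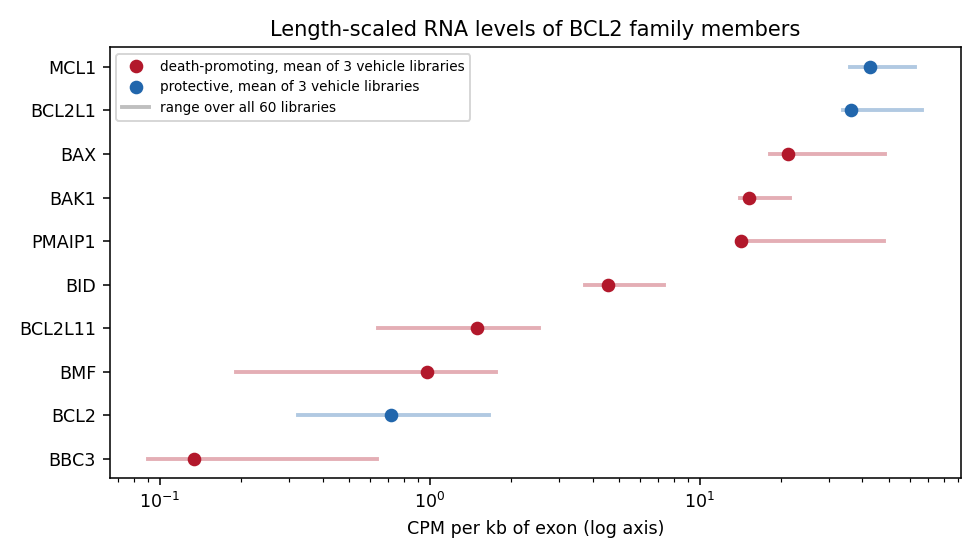
Length-scaled RNA level (CPM per kb of exon, log axis) of each member. Points are means of the 3 vehicle libraries and lines the range over all 60 libraries; MCL1 and BCL2L1 lie highest at 42.6 and 36.2 CPM per kb and BBC3 lowest at 0.134.

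Some exons of the members are shared with genes on the opposite strand in GENCODE 29. ABALON overlaps 1424 bases (43%) of the exons of BCL2L1, MIR4435-2HG 727 bases (10.9%) of BCL2L11, BMF-AS1 461 bases (8.5%) of BMF and GGNBP1 91 bases (4.1%) of BAK1. The library kit marks strand, but the strand setting of the counting is not given in the sources used here, so reads from these partners cannot be told apart from those of the members.

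At high against low doses, members passed the test in 4 of the 6 replicated extracts, and some genes did so in several of them. BMF fell in 4 extracts, PMAIP1 and MCL1 rose in 3, BBC3 and BCL2L1 rose in 2, and BID, BAX and BCL2L11 each changed in 1. In the fit of all 54 replicated libraries, BAK1 and BCL2 passed in none. Against its low dose, Yijin-tang had 3 members higher and 1 lower, where 3.61% and 3.39% of all 17851 genes tested passed as higher and lower (edgeR's quasi-likelihood test, Benjamini-Hochberg adjusted p under 0.05 over all genes). Soshiho-tang had 4 higher and 1 lower against 9.92% and 8.66% of all genes, and Zizyphi Semen 0 higher and 1 lower against 2.02% and 3.76%. The summed fibroblast markers, mostly COL1A1 and COL1A2 in the vehicle, were also lower with Soshiho-tang (2040 to 2090 CPM at the high dose, 4890 to 5020 CPM at the low dose). Their part in the member results was not tested. Schisandrae Fructus had 4 higher and 3 lower against 22.3% and 23.6%, so changed genes were common there in general. For Longan Arillus no member passed against 0.936% of genes, with 2 at an unadjusted p under 0.05 and 0 by DESeq2. For Liriopis seu Ophiopogonis Tuber no member and 0% of genes passed, with 0 members at an unadjusted p under 0.05 and 0 by DESeq2. The median log2 fold change of the 10 members lay between -0.01 and 0.24 in the 6 extracts, beside medians of all genes between -0.002 and 0.001. The members were chosen with earlier results of these data known, so counts above the shares of all genes are no independent evidence.

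**Figure D2:**
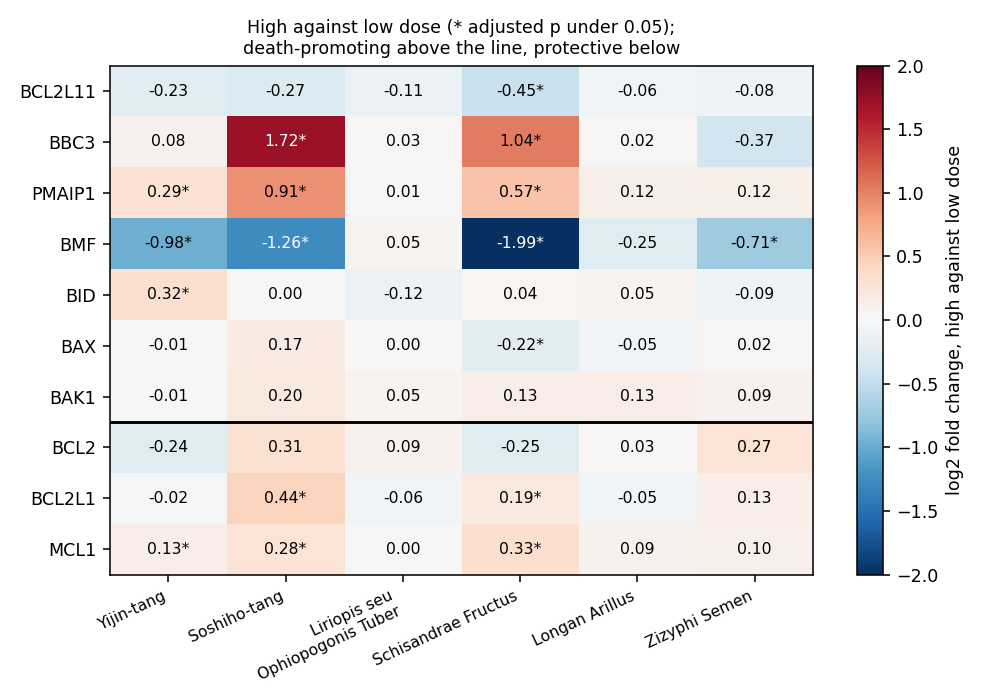
Log2 fold change of each member (rows) at the high against the low dose of each replicated extract (columns), with an asterisk at an adjusted p under 0.05. BMF is lower in 4 columns, down to -1.99, while PMAIP1 and MCL1 are higher in 3.

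PMAIP1 (ENSG00000141682, chr18:59899948-59904306, GRCh38, plus strand) encodes NOXA, a BH3-only protein that binds MCL1. At the high dose of Soshiho-tang its 2 libraries held 66.3 and 72.8 CPM and at the low dose 37.3 and 36.8 CPM. With Schisandrae Fructus the 3 high-dose libraries held 52.5, 47 and 52.1 CPM and the low-dose ones 32.5, 36 and 33.5 CPM. Yijin-tang gave 38.3, 40.8 and 37.8 CPM at the high dose against 32.3, 31.6 and 31.4 CPM. High-dose libraries lay above every low-dose library in these 3 extracts and overlapped with them in the other 3. The log2 fold changes were 0.91 ± 0.07 (SE; adjusted p = 8.91e-14) for Soshiho-tang, 0.57 ± 0.06 (adjusted p = 6.04e-11) for Schisandrae Fructus and 0.29 ± 0.06 (adjusted p = 0.000653) for Yijin-tang, that is 1.88-, 1.49- and 1.23-fold. For Longan Arillus and Zizyphi Semen the estimates were both 0.12, with 95% intervals from 0 to 0.24 and from -0.01 to 0.24, and for Liriopis seu Ophiopogonis Tuber 0.01 (-0.12 to 0.13).

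BBC3 (ENSG00000105327, chr19:47220822-47232766, minus strand) encodes PUMA, a BH3-only protein that binds all the main protective proteins. Its level was low: 2.03 and 1.47 CPM (61 and 45 reads) at the high dose of Soshiho-tang against 0.42 and 0.606 CPM (8 and 17 reads) at the low dose. Schisandrae Fructus gave 1.11, 1.27 and 0.98 CPM (33, 42 and 31 reads) against 0.62, 0.451 and 0.566 CPM (16, 12 and 12 reads). Both rises separated the groups fully, with log2 fold changes of 1.72 ± 0.3 (adjusted p = 1.77e-05) and 1.04 ± 0.25 (adjusted p = 0.000623). In the other 4 extracts the groups overlapped and the estimates ran from -0.37 to 0.08 with 95% intervals that together spanned -0.98 to 0.68. A rise as large as that with Schisandrae Fructus lay outside these intervals, and changes within them were not resolved.

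BMF (ENSG00000104081, chr15:40087890-40108892, minus strand) encodes a BH3-only protein held at the cytoskeleton through dynein light chains, and it was the member with the largest falls. With Schisandrae Fructus it stood at 1.28, 1.66 and 1.11 CPM at the high dose against 5.58, 5.27 and 5.29 CPM at the low dose. Soshiho-tang gave 1.76 and 1.44 CPM against 3.47 and 4.14 CPM, and Yijin-tang 2.52, 2.59 and 2.94 CPM against 5.99, 5.14 and 4.92 CPM. Zizyphi Semen gave 2.78, 4.32 and 3.62 CPM against 5.45, 6.19 and 5.88 CPM. In all 4 extracts every high-dose library lay below every low-dose library. The log2 fold changes were -1.99 ± 0.16 (adjusted p = 1.03e-13), -1.26 ± 0.2 (adjusted p = 5.74e-06), -0.98 ± 0.15 (adjusted p = 7.53e-06) and -0.71 ± 0.15 (adjusted p = 0.00131) in that order, from 3.96-fold to 1.63-fold lower. Longan Arillus (-0.25, 95% interval -0.54 to 0.04) and Liriopis seu Ophiopogonis Tuber (0.05, -0.25 to 0.34) did not pass. Reads per library were 35 to 174 in the groups compared for the 4 extracts.

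**Figure D3:**
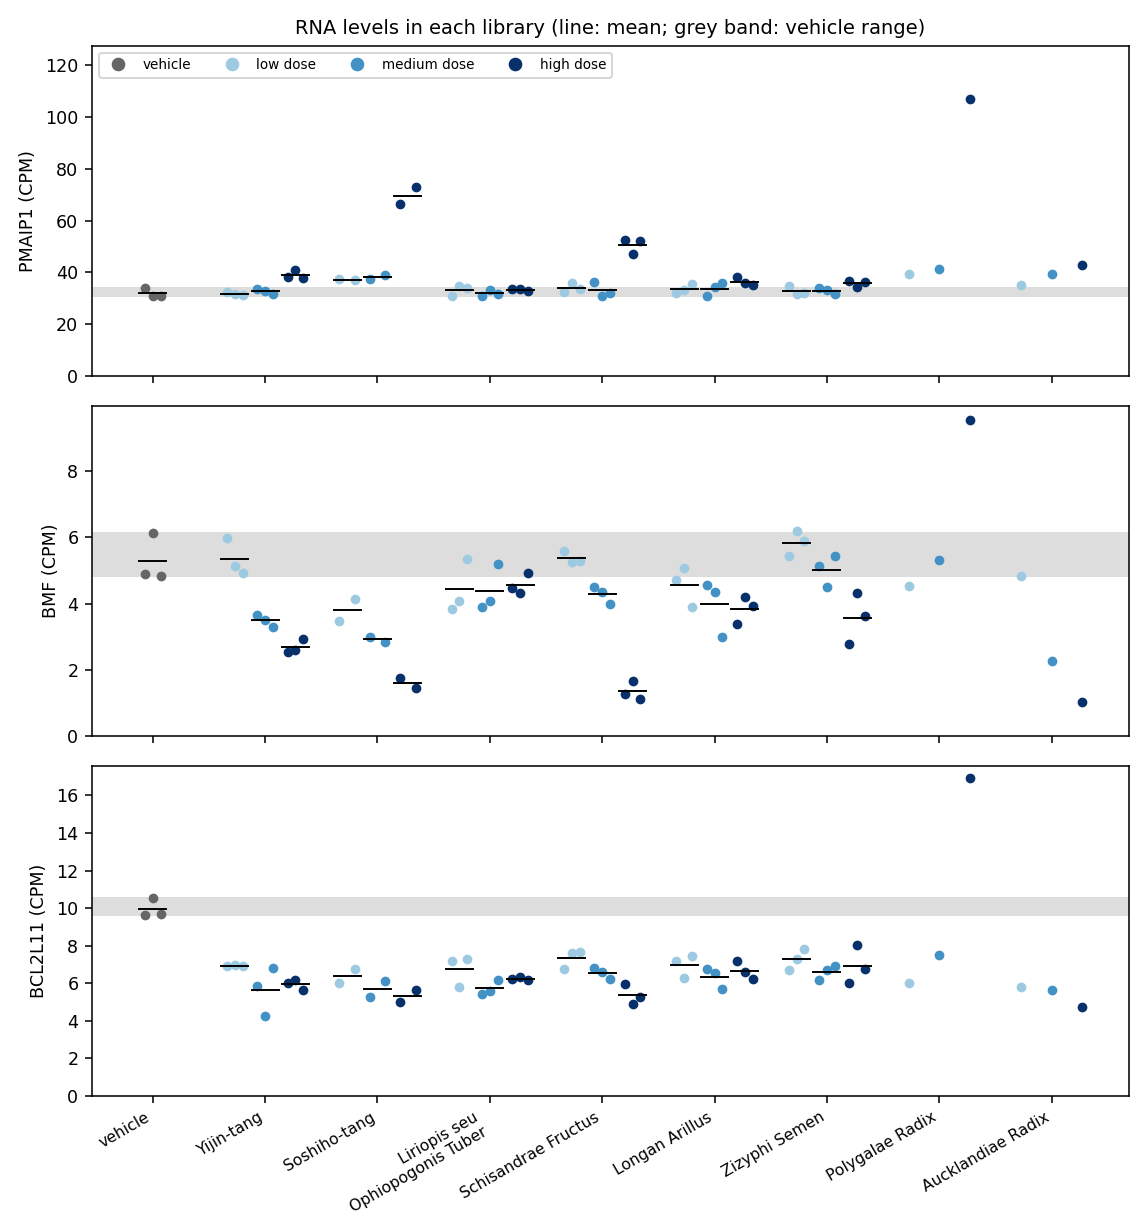
CPM of PMAIP1, BMF and BCL2L11 in each of the 60 libraries, by extract and dose, with group means as lines and the range of the 3 vehicle libraries as a grey band. PMAIP1 stands out at the high doses of Soshiho-tang (66.3 and 72.8 CPM) and Polygalae Radix (107 CPM), BMF declines with dose in several extracts, and BCL2L11 lies below the band in every library of a replicated extract.

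BCL2L11 (ENSG00000153094, chr2:111119378-111168447, plus strand) encodes BIM, a BH3-only protein that binds every main protective protein and can act on BAX. It fell with Schisandrae Fructus, from 6.78, 7.6 and 7.64 CPM at the low dose to 5.96, 4.89 and 5.25 CPM at the high dose, a log2 fold change of -0.45 ± 0.11 (adjusted p = 0.000667). The groups did not overlap. Estimates for the other 5 extracts were also below 0, from -0.27 to -0.06, and none passed. The BCL2L11 libraries did not overlap with Yijin-tang (5.62 to 6.19 CPM at the high dose, 6.9 to 6.98 CPM at the low dose). They did not with Soshiho-tang either (5.02 to 5.66 CPM against 5.99 to 6.78 CPM). Such separation of 2 or 3 libraries per group alone marks no difference. With Soshiho-tang at the medium against the low dose, 7 of the 10 members were apart and none passed. The share of all genes with no overlap was not counted. BID (ENSG00000015475, chr22:17734138-17774770, minus strand), which links death receptors to mitochondria once caspase 8 cleaves it, held 25.7, 27.3 and 26.4 CPM at the high dose of Yijin-tang against 21.5, 20.1 and 22.2 CPM at the low dose. Its rise of 0.32 ± 0.09 (adjusted p = 0.0131) was the only one for BID, and it no longer passed (adjusted p up to 0.0975) when the second library of either dose was left out. In the other extracts the BID estimates lay between -0.12 and 0.05.

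The effectors moved little. BAX (ENSG00000087088, chr19:48954815-48961798, plus strand) fell with Schisandrae Fructus, from 57.5, 58.4 and 53.5 CPM at the low dose to 48.9, 49.9 and 47.1 CPM, by 0.22 on the log2 scale (SE 0.07, adjusted p = 0.00677). These libraries did not overlap. For Soshiho-tang the BAX estimate was 0.17 (95% interval 0 to 0.33, adjusted p = 0.17), on the other side of 0. BAK1 (ENSG00000030110, chr6:33572547-33580293, minus strand) had estimates from -0.01 to 0.2 in the 6 extracts, and the largest, for Soshiho-tang, had an interval of 0.05 to 0.35 and an adjusted p of 0.0591. Fitted on the compared libraries only, that difference passed (0.19, adjusted p = 0.0117). BAK1 read 38.2 and 39.7 CPM at that high dose and 34.2 and 33.7 CPM at the low dose.

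Among the protective members, MCL1 (ENSG00000143384, chr1:150574551-150579738, minus strand), whose short-lived protein is the partner of NOXA, rose in the same 3 extracts as PMAIP1, by smaller amounts. Schisandrae Fructus raised it from 175, 173 and 180 CPM to 227, 215 and 225 CPM, and Soshiho-tang from 176 and 171 CPM to 207 and 215 CPM. Yijin-tang gave 196 CPM in each of its 3 high-dose libraries against 185, 171 and 179 CPM. The groups were apart in all 3 extracts, with log2 fold changes of 0.33 ± 0.04 (adjusted p = 9.06e-09), 0.28 ± 0.05 (adjusted p = 5.5e-05) and 0.13 ± 0.04 (adjusted p = 0.0395). The MCL1 call with Yijin-tang was lost in 6 of 12 alternatives, with estimates of 0.10 to 0.16 and adjusted p up to 0.311: without the filter on low counts, and on leaving out any 1 of its libraries except the first low-dose one. The MCL1 libraries were also apart for Longan Arillus (0.09, adjusted p = 0.419) and Zizyphi Semen (0.10, adjusted p = 0.204), which did not pass. Separation alone marks no difference here, as its share over all genes was not counted.

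BCL2L1 (ENSG00000171552, chr20:31664452-31723989, minus strand), the gene of BCL-xL and of the shorter BCL-xS, rose with Soshiho-tang from 137 and 139 CPM to 189 and 184 CPM. With Schisandrae Fructus it went from 129, 136 and 125 CPM to 152, 146 and 147 CPM. The differences were 0.44 ± 0.07 (adjusted p = 2.68e-06) and 0.19 ± 0.06 (adjusted p = 0.00414) on the log2 scale, with no overlap. The table sums the isoforms, so the balance of long and short forms is not seen. BCL2 (ENSG00000171791, chr18:63123346-63320128, minus strand) passed in no extract in the fit of all 54 replicated libraries. Its estimates went both ways: 0.31 (95% interval 0.03 to 0.59) for Soshiho-tang, 0.27 (0.02 to 0.51) for Zizyphi Semen, -0.24 (-0.49 to 0) for Yijin-tang and -0.25 (-0.5 to -0.01) for Schisandrae Fructus.

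**Figure D4:**
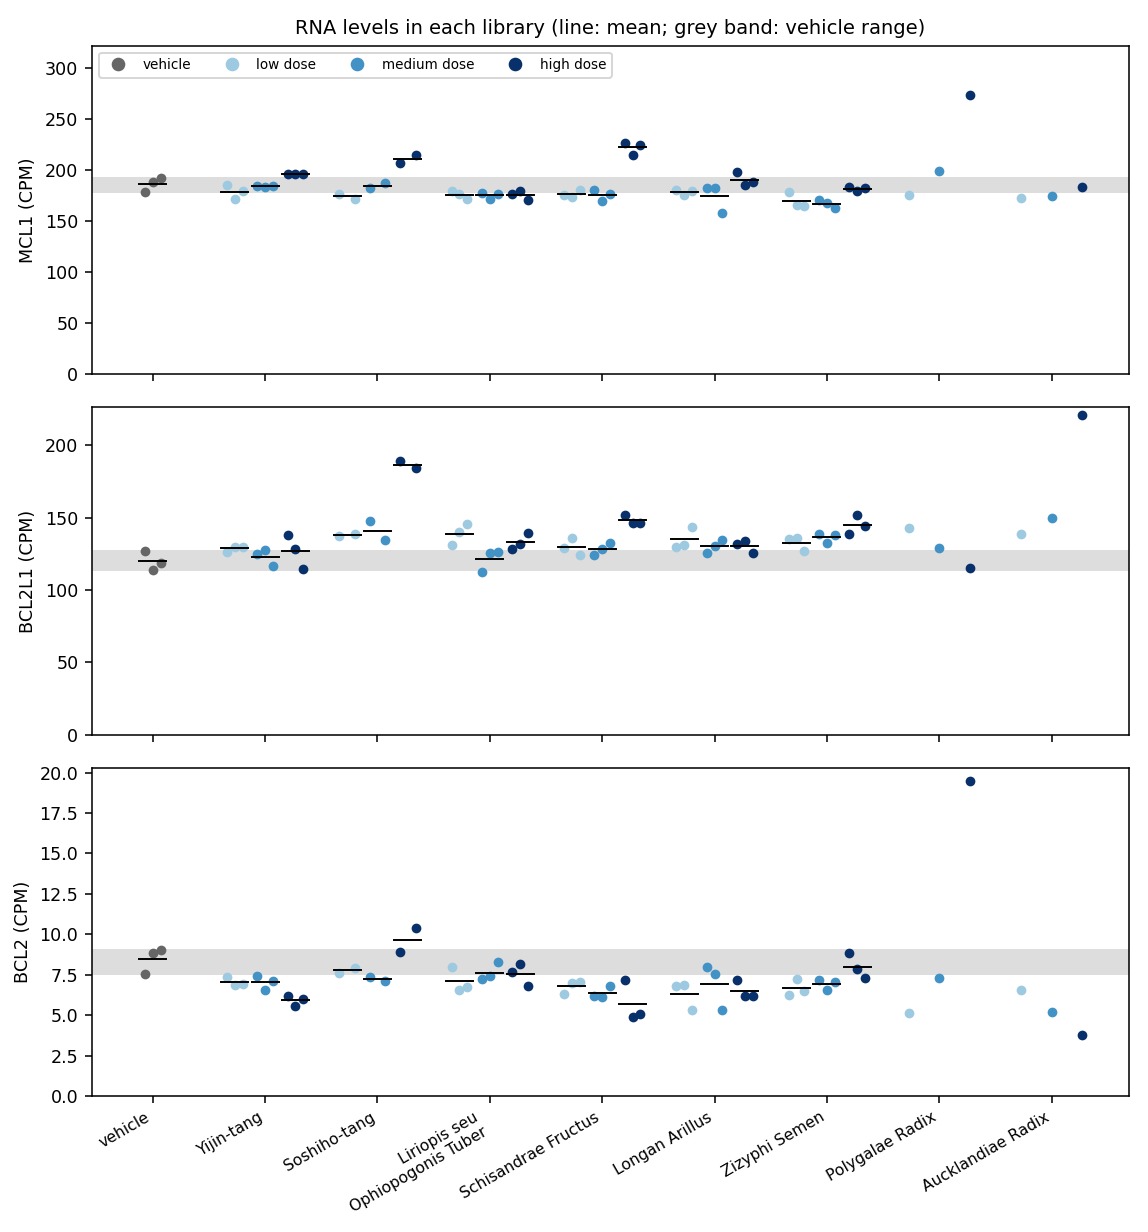
CPM of MCL1, BCL2L1 and BCL2 in each of the 60 libraries, drawn as for the BH3-only members. The high-dose libraries of Schisandrae Fructus (215 to 227 CPM) and Soshiho-tang (207 and 215 CPM) lie above the vehicle band for MCL1, and BCL2L1 reaches 189 CPM with Soshiho-tang.

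At the medium dose no member passed against the low dose in any of the 6 extracts, by edgeR or by DESeq2, where 0.0224% (Yijin-tang), 0.0112% (Soshiho-tang), 0.0392% (Schisandrae Fructus) and 0% (the other 3) of all genes passed by edgeR. The smallest adjusted p of the 60 member tests was 0.326, and 7 had an unadjusted p under 0.05. The smallest unadjusted p belonged to BMF with Yijin-tang, which read 3.67, 3.52 and 3.3 CPM at the medium dose against 5.99, 5.14 and 4.92 CPM, a log2 fold change of -0.61 (95% interval -0.9 to -0.32). BMF at the medium dose was -0.39 (-0.77 to -0.02) for Soshiho-tang and -0.33 (-0.61 to -0.05) for Schisandrae Fructus, with no overlap of libraries in any of the 3 extracts. PMAIP1, by contrast, was within 0.06 of its low-dose level on the log2 scale in all 6 extracts, with the farthest interval bound at 0.2, for Soshiho-tang.

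Against the vehicle, BCL2L11 was lower at every dose of the 6 replicated extracts. At the high dose, members that passed in either direction numbered 5 for Yijin-tang (19.8% of all genes), 8 for Soshiho-tang (30.3%), 1 for Liriopis seu Ophiopogonis Tuber (4.09%), 9 for Schisandrae Fructus (50.1%), 4 for Longan Arillus (15.9%) and 3 for Zizyphi Semen (13.3%). At the medium dose they numbered 2 for Yijin-tang (14.2% of all genes), 4 for Soshiho-tang (4.2%), 1 for Liriopis seu Ophiopogonis Tuber (13%), 2 for Schisandrae Fructus (5.39%), 2 for Longan Arillus (25.2%) and 3 for Zizyphi Semen (14.4%). All these comparisons share the same 3 vehicle libraries. Leaving out the second vehicle library ended 19 of the 54 member calls made against the vehicle, and leaving out the third ended 14. The third medium-dose library of Longan Arillus also bore on these counts: without it 1 member and 358 genes passed against the vehicle, compared with 2 members and 4501 genes with it.

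BCL2L11 was lower than the vehicle in all 18 replicated treated groups, the low doses included. The 18 comparisons share the same 3 vehicle libraries. The share of all genes that passed in all 18 was not counted. It cannot exceed the 1.08% that passed at the low dose of Schisandrae Fructus. The vehicle libraries held 9.64, 10.5 and 9.68 CPM, and the 51 treated libraries of these groups held 4.26 to 8.03 CPM, with a median of 6.35 CPM. None of these 51 libraries reached the lowest vehicle library. The share of all genes so separated was not counted. Outside them, the high-dose library of Polygalae Radix held 16.9 CPM, above all 3 vehicle libraries. The other libraries of the extracts with 1 library per dose held 4.76 to 7.52 CPM. Log2 fold changes ran from -0.90 to -0.44, and at the low doses alone from -0.63 for Soshiho-tang (adjusted p = 0.00423) to -0.44 for Schisandrae Fructus (adjusted p = 0.0312). At the low dose, BCL2L11 was 1 of 1 member that passed for Yijin-tang (2.62% of all genes), for Soshiho-tang (1.91%) and for Schisandrae Fructus (1.08%), 1 of 2 for Liriopis seu Ophiopogonis Tuber (6.59%) and Longan Arillus (5.41%) and 1 of 3 for Zizyphi Semen (18.5%). Of the 18 calls, 6 were lost in at least 1 alternative, nearly all of them at low doses. Lost were the low-dose calls of Yijin-tang, Soshiho-tang, Liriopis seu Ophiopogonis Tuber, Schisandrae Fructus and Longan Arillus, and the medium-dose call of Longan Arillus. The low-dose call of Schisandrae Fructus was lost in 6 of 12 alternatives (adjusted p up to 0.156). Among the low doses, only the call of Zizyphi Semen held in every alternative. Treatment and library set cannot be told apart here. Between doses of the same set, BCL2L11 passed with Schisandrae Fructus only.

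BCL2 was also mostly below the vehicle, whose libraries held 7.52, 8.84 and 9.03 CPM. Of the 51 treated libraries, 40 lay below that range and 1 above it. Such counts alone mark no shift, because libraries outside the range of the 3 vehicle libraries were common for other members too. For BID 18 of the 51 lay below and 30 above, and for BAX 6 and 26. The share over all genes was not counted. BCL2 passed as lower in 6 of 18 groups: the high doses of Schisandrae Fructus (-0.57), Yijin-tang (-0.51) and Longan Arillus (-0.38), the medium dose of Schisandrae Fructus (-0.41), and the low doses of Longan Arillus (-0.41) and Zizyphi Semen (-0.35). The calls for the high dose of Yijin-tang and of Schisandrae Fructus held in every alternative, and the other 4 did not. BCL2L1 lay above the vehicle range of 114 to 127 CPM in 39 of the 51 libraries and passed as higher in 6 groups, from 0.19 at the medium dose of Zizyphi Semen to 0.64 at the high dose of Soshiho-tang. Of these 6 calls, 3 were lost in some alternatives: the medium dose of Soshiho-tang (3 of 11, adjusted p up to 0.384), the low dose of Liriopis seu Ophiopogonis Tuber (5 of 12, up to 0.131) and the medium dose of Zizyphi Semen (3 of 12, up to 0.127).

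PMAIP1 passed as higher than the vehicle (33.9, 30.9 and 30.7 CPM) at the high doses of Soshiho-tang (1.13), Schisandrae Fructus (0.67), Yijin-tang (0.29) and Longan Arillus (0.19) and at the medium dose of Soshiho-tang (0.27). The PMAIP1 calls for Longan Arillus and for the medium dose of Soshiho-tang were lost in 4 of 12 and 4 of 11 alternatives, with adjusted p up to 0.122 and 0.152. BMF passed as lower in 8 groups, down to -1.97 with Schisandrae Fructus and -1.72 with Soshiho-tang, and 5 of these 8 calls were lost in at least 1 alternative. The BMF call for the medium dose of Longan Arillus (-0.40, adjusted p = 0.0399) was lost in 5 of 12, and without the third library of that dose it read -0.23 (adjusted p = 0.444). BBC3 passed at the high doses of Soshiho-tang (2.03) and Schisandrae Fructus (1.39), as it did against the low dose. BAK1 passed at both of these high doses, by 0.21 and 0.24, which it did not against the low dose. The BAK1 call with Soshiho-tang was lost without the second vehicle library or the third high-dose library (adjusted p up to 0.0926). BAX passed as higher with Soshiho-tang (0.19, adjusted p = 0.0475) and as lower with Schisandrae Fructus (-0.17, adjusted p = 0.0333), and BID as higher with Yijin-tang (0.38, adjusted p = 0.00144). The 2 BAX calls were lost in 4 of 11 and 6 of 12 alternatives. MCL1 passed as higher at the high doses of Soshiho-tang (0.18) and Schisandrae Fructus (0.25) and as lower at the medium (-0.16) and low (-0.13) doses of Zizyphi Semen. Those at the medium and low doses of Zizyphi Semen were lost in 3 and 7 of 12 alternatives (adjusted p up to 0.222 and 0.403).

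Yijin-tang and Soshiho-tang shared doses and a library set, so the difference of their high against low log2 fold changes was tested. It passed for 4 members, all in the direction of Soshiho-tang, where 5.1% of all genes passed in that direction and 4.3% in the other. PMAIP1 differed by 0.61 ± 0.09 (adjusted p = 3.3e-06), BCL2L1 by 0.46 ± 0.09 (adjusted p = 0.000193), BBC3 by 1.65 ± 0.42 (adjusted p = 0.00687) and BCL2 by 0.55 ± 0.18 (adjusted p = 0.0483). The BCL2 difference was lost in 12 of 16 alternatives, DESeq2 among them (adjusted p up to 0.259), and the BBC3 difference in 4 of 16 (up to 0.0612). The difference for BMF was -0.28 with a 95% interval from -0.79 to 0.23, and for MCL1 it was 0.14 (0.01 to 0.28, adjusted p = 0.197). BID had the reverse sign, -0.32 (-0.59 to -0.04), and did not pass (adjusted p = 0.152). Between Longan Arillus and Zizyphi Semen no member's difference passed by edgeR or DESeq2, where 3.97% of all genes did by edgeR, and 2 members had an unadjusted p under 0.05. These were BMF at 0.46 (95% interval 0.04 to 0.88) and BCL2L1 at -0.17 (-0.33 to -0.02).

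**Figure D5:**
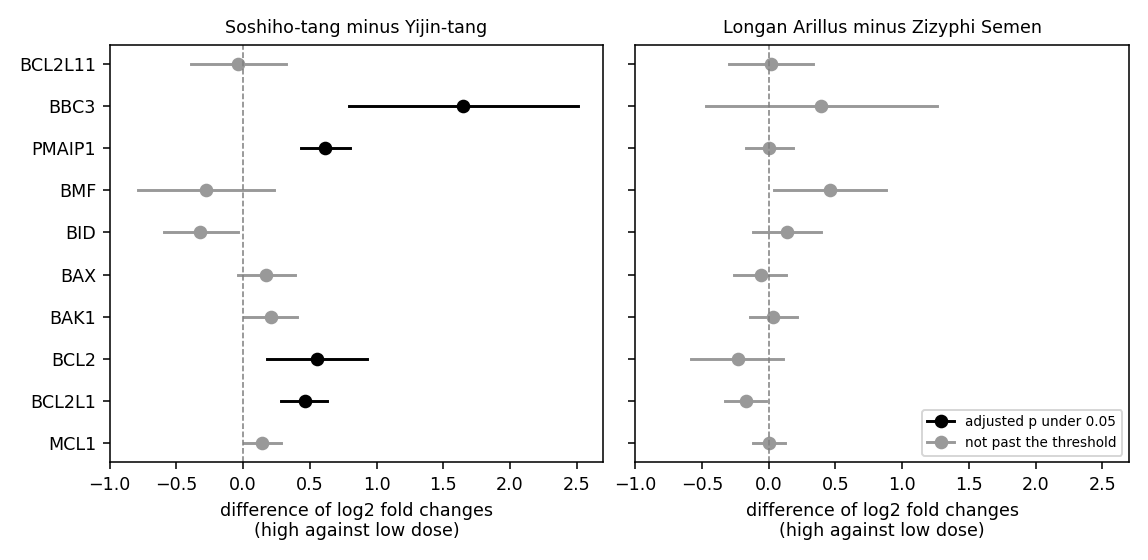
Difference between 2 extracts in a member's log2 fold change at the high against the low dose (points) with its 95% interval (lines), black where the adjusted p is under 0.05. PMAIP1, BBC3, BCL2L1 and BCL2 lie to the right of 0 for Soshiho-tang minus Yijin-tang, of which BCL2 lost its call in 12 of 16 alternatives and BBC3 in 4, and no member passes for Longan Arillus minus Zizyphi Semen.

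Polygalae Radix and Aucklandiae Radix had 1 library per dose, so their values have no replicate check and no test, and the intervals given cover counting error only (exact Poisson, 95%). At the high dose of Polygalae Radix, BCL2 stood at 19.5 CPM (18 to 21.1) against 5.15 CPM (4.22 to 6.23) at the low dose, a ratio of 3.78. BCL2L11 stood at 16.9 CPM against 6.02 CPM and PMAIP1 at 107 CPM against 39.5 CPM, ratios of 2.81 and 2.71. BBC3 (31 against 9 reads), BMF and MCL1 had ratios of 2.25, 2.11 and 1.56, while BID and BCL2L1 were at 0.768 and 0.804. Thus 6 members lay at least 1.5-fold higher and none as much lower, in a library where 21.6% of genes were at least 1.5-fold higher and 27.5% as much lower, counted over genes with 5 CPM or more in either library, which BBC3 did not reach. The summed astroglial markers of this library stood at 726 CPM, against 5530 CPM at the low dose. That sum is mostly VIM (4770 CPM of 4850 to 4920 CPM in the vehicle). The sums of fibroblast (800 against 4900 CPM), microglial and leukocyte (65.8 against 217 CPM) and epithelial markers (27.5 against 159 CPM) were lower too. The oligodendrocyte sum was higher (10.2 against 4.82 CPM). The part of these shifts was not tested. BCL2L11 and BMF, lower with dose in the replicated extracts where they passed, were higher here.

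At the high dose of Aucklandiae Radix, BMF held 1.04 CPM (0.679 to 1.52) against 4.82 CPM (3.98 to 5.78), a ratio of 0.216, and it was already at 2.26 CPM at the medium dose, a ratio of 0.468. BAX reached 126 CPM (121 to 130) against 60.4 CPM, a ratio of 2.08, the highest BAX level of the 60 libraries. BBC3 rested on 29 against 9 reads, a ratio of 3.1. BCL2L1 and BID had ratios of 1.59 and 1.57, and BCL2 one of 0.582. With 4 members at least 1.5-fold higher and 2 as much lower, the background was 11.5% of genes higher and 13.5% lower at that fold, over genes with 5 CPM or more in either library, which BBC3 and BMF did not reach. PMAIP1, at 42.8 against 34.9 CPM, had a ratio of 1.23. At the medium doses all members except BMF with Aucklandiae Radix stayed under a 1.5-fold difference, where 0.7% and 1.16% of genes were higher and lower with Polygalae Radix and 1.07% and 1.43% with Aucklandiae Radix.

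The other genes of the pathway were followed in 6 lists, of which BCL2A1, BCL2L10, BIK, HRK, BCL2L14 and TP73 did not reach the filter on counts. The lists were chosen with earlier results of these data known, so a count above the share of all genes is no independent evidence. No gene of these lists passed at a medium against a low dose, and at the high dose of Liriopis seu Ophiopogonis Tuber none did either. Each list count that follows is for a high against a low dose and reads against the share of all genes that passed as higher and lower: 9.92% and 8.66% with Soshiho-tang, 22.3% and 23.6% with Schisandrae Fructus, 3.61% and 3.39% with Yijin-tang, 2.02% and 3.76% with Zizyphi Semen, and 0.936% in either direction with Longan Arillus. In the death receptor arm, 3 of 11 genes rose and 1 fell with Soshiho-tang, 4 rose and 2 fell with Schisandrae Fructus, and 2 rose and 2 fell with Yijin-tang, with list medians of 0.14, -0.01 and 0.10 on the log2 scale. TNFRSF10B, which encodes the TRAIL receptor DR5, rose by 1.17 ± 0.06, 0.82 ± 0.05 and 0.39 ± 0.05 on the log2 scale in these extracts (adjusted p = 1.17e-19, 7.1e-18 and 2.11e-07). TNFRSF10A, the other death-signalling TRAIL receptor, rose by 1.27 ± 0.19 with Soshiho-tang and 0.95 ± 0.15 with Schisandrae Fructus. The decoy receptor gene TNFRSF10D fell with Soshiho-tang (-1.10 ± 0.07) and Yijin-tang (-0.34 ± 0.06) and rose with Schisandrae Fructus (0.25 ± 0.05) and Zizyphi Semen (0.25 ± 0.06).

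Of the inhibitor of apoptosis proteins and their antagonists, 3 of 7 genes rose and 1 fell with Soshiho-tang, 5 rose with Schisandrae Fructus (22.3% of all genes) and 2 rose with Yijin-tang (3.61%), with list medians of 0.18, 0.28 and 0.05. With Soshiho-tang 9.92% of all genes rose and 8.66% fell. BIRC3, which encodes cIAP2 and is a target of NF-kB, rose by 2.18 ± 0.09 with Yijin-tang (adjusted p = 8.77e-23) and 1.53 ± 0.11 with Soshiho-tang (adjusted p = 1.16e-14). BIRC2 rose in 3 extracts, by 0.56 ± 0.05 with Yijin-tang, 0.41 ± 0.05 with Schisandrae Fructus and 0.22 ± 0.06 with Soshiho-tang. Among 7 genes of the apoptosome and caspases, Schisandrae Fructus raised 3, among them CASP9, the initiator of the apoptosome, at 0.27 ± 0.06, and lowered 3, with CASP2 at -0.51 ± 0.06, where 22.3% and 23.6% of all genes rose and fell (list median -0.11). CASP2 also fell with Soshiho-tang (-0.30 ± 0.07).

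Of 12 transcription factors known to act on member genes, 8 rose and 2 fell with Soshiho-tang, 6 rose and 4 fell with Schisandrae Fructus, 4 rose and 1 fell with Yijin-tang and 2 rose with Zizyphi Semen. The list medians were 0.36, 0.16, 0.11 and 0.09, and 9.92%, 22.3%, 3.61% and 2.02% of all genes rose in these extracts. ATF4, of the integrated stress response, rose by 1.45 ± 0.07 with Soshiho-tang (adjusted p = 8.91e-21) and 0.43 ± 0.06 with Schisandrae Fructus (adjusted p = 2.29e-08). JUN rose in 4 extracts, from 1.11 ± 0.06 with Soshiho-tang to 0.19 ± 0.05 with Zizyphi Semen. FOXO1, a factor known to act on BCL2L11, fell with Schisandrae Fructus (-1.06 ± 0.08), Soshiho-tang (-0.50 ± 0.1) and Yijin-tang (-0.36 ± 0.08). DDIT3, which encodes CHOP and acts downstream of ATF4, rose by 1.71 ± 0.14 with Soshiho-tang and 0.58 ± 0.11 with Schisandrae Fructus, and was singled out after its values were seen.

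In the list of 7 genes gathered under the turnover of BCL2 family proteins, 1 rose with Soshiho-tang, 3 with Schisandrae Fructus and 1 with Zizyphi Semen, and none fell, where 9.92%, 22.3% and 2.02% of all genes rose. The list medians were 0.00, 0.10 and 0.06. TRIB3, a pseudokinase gene that ATF4 and CHOP act on, was the one that rose in all 3 extracts, by 2.57 ± 0.09, 1.40 ± 0.07 and 0.30 ± 0.08 on the log2 scale. The counts for Soshiho-tang and Zizyphi Semen rest on TRIB3 alone and do not speak for turnover genes as a set. With Schisandrae Fructus, FBXW7, the substrate receptor of a ubiquitin ligase for MCL1, rose by 0.21 ± 0.06, and VDAC2, the mitochondrial channel protein that holds BAK1, by 0.23 ± 0.07. Among 7 other BCL2-homology genes tested, 1 rose and 2 fell with Soshiho-tang, and 3 rose and 3 fell with Schisandrae Fructus. With Longan Arillus 2 fell and with Zizyphi Semen 2 rose. The list medians were 0.02, -0.14, 0.01 and 0.03 in that order. Of all genes, 9.92% rose and 8.66% fell with Soshiho-tang, and 22.3% and 23.6% with Schisandrae Fructus. With Zizyphi Semen 2.02% rose and 3.76% fell, and with Longan Arillus 0.936% passed in either direction. In this list BNIP3, which acts in mitophagy, fell with Soshiho-tang (-0.85 ± 0.08), Schisandrae Fructus (-0.54 ± 0.06) and Longan Arillus (-0.48 ± 0.06) and rose with Zizyphi Semen (0.26 ± 0.06).

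Across the 18 replicated treated groups, each centred on its extract's mean of 3 doses, the member patterns were compared as a description. The groups share library sets, and a few high-dose groups carry most of the spread. MCL1 went with PMAIP1 (Pearson r = 0.91) and against BMF (r = -0.94), and BCL2L1 went with PMAIP1 (r = 0.89). BCL2L11 went with BMF (r = 0.82), and BAX followed none of the others above 0.51. Among 11097 other genes with at least 5 CPM on average, ERN1, TNFRSF10B and MFSD2A were most like PMAIP1 (r = 0.993 each), and CMBL, SYTL5 and FAM13A most like BMF (r = 0.974, 0.970 and 0.967). FGF5, KLF10 and PRDM8 were nearest to MCL1 (r = 0.977, 0.971 and 0.968), and WBP2, HMGA2 and UBAP1 to BCL2L1 (r = 0.977, 0.969 and 0.968). GOT1 was nearest to BBC3 (r = 0.955), CADM3 to BCL2L11 (r = 0.924), SLC27A4 to BCL2 (r = 0.922), PMS2CL to BAK1 (r = 0.914), TRIM21 to BAX (r = 0.912) and GLA to BID (r = 0.892).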

How the data were processed

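Per the submitters' processing notes, FastQC 0.11.9, Trim Galore 0.6.5, STAR 2.7.3a (hg38) and RSEM 1.3.3 were used, and the deposited values are RSEM's expected counts per gene. Annotation release and strand setting: not given in the sources used here. Values, of which 10.86% were not whole, were rounded. One edgeR 4.0.16 model (R 4.3.3) covered 54 libraries in 19 replicated groups: default low-count filter (17851 genes), TMM scaling, quasi-likelihood F test with group as the only term, Benjamini-Hochberg adjustment over all genes, threshold 0.05. The SE is the absolute log2 fold change divided by the square root of F. CPM are TMM-scaled, with a prior count of 2 on the log2 scale. DESeq2 1.42.0, other scalings, filters, sets of libraries and a replicate block were alternatives. A check of 51 pairs of libraries found no copies (chi-square per degree of freedom at least 2.24). Positions and exon lengths came from GENCODE 29, and symbols from a separate list of current gene names. All 10 members are named where they passed; other pathway genes are named up to 3 per list and direction, by adjusted p. The members and lists were chosen with earlier results of these data known. Some genes of the lists, and 1 promoter motif searched, are not reported here. The fit was tested on simulated data.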

Additional observations from a re-analysis of the deposited data

Results flagged for a closer look

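The response to dose differed between Soshiho-tang and Yijin-tang in a test of the difference itself for 4 members: the log2 fold change at the high against the low dose was larger with Soshiho-tang by 1.65 for BBC3, 0.61 for PMAIP1, 0.55 for BCL2 and 0.46 for BCL2L1. PMAIP1 and BCL2L1 held in all 16 alternatives, with adjusted p up to 0.000214 and 0.00286. BBC3 lost the call in 4 of 16 (adjusted p up to 0.0612): without the filter on low counts, and without the second library of the high or low dose of Soshiho-tang or of the low dose of Yijin-tang. BCL2 lost it in 12 of 16 (adjusted p up to 0.259), with estimates of 0.44 to 0.66.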

How the results depend on the processing

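Of 17 member calls against a low dose, 15 held under every alternative; of 54 against the vehicle, 29 did; of 4 between extracts, 2 did. No call reversed. Leaving out 1 library, members called ranged as follows. Yijin-tang: 2 to 4 at the high against the low dose, and against the vehicle 5 at the high, 1 to 2 at the medium and 0 to 1 at the low dose. Over all genes, 837 to 1022 passed there, and against the vehicle 2284 to 3316, 538 to 2791 and 72 to 674. Soshiho-tang: 5 at the high against the low dose, and against the vehicle 6 to 8, 2 to 4 and 0 to 3 at the high, medium and low dose. Liriopis seu Ophiopogonis Tuber: against the vehicle 1, 1 and 0 to 2, beside 63 to 1067, 320 to 2413 and 51 to 1607 of all genes. Schisandrae Fructus: 7 to 8 at the high against the low dose, and against the vehicle 8 to 9, 1 to 2 and 0 to 1. Of all genes, 7292 to 7801 passed there, and against the vehicle 7899 to 8735, 210 to 1239 and 29 to 299. Longan Arillus: against the vehicle 1 to 4, 1 to 5 and 0 to 3, beside 1013 to 3055, 358 to 6130 and 40 to 1316 of all genes. Zizyphi Semen: 1 at the high against the low dose, and against the vehicle 2 to 4, 1 to 3 and 1 to 4. Of all genes, 556 to 880 passed there, and against the vehicle 1241 to 2258, 850 to 2540 and 1168 to 3412. The Soshiho-tang minus Yijin-tang difference: 2 to 3. The remaining comparisons stayed at 0. For Soshiho-tang at the high against the low dose the count over all genes was 2149 to 2286 in these fits, against 3316 with all libraries. Where both groups of a comparison had 2 libraries, the lone library left was assumed to vary like the other groups.

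With only the compared libraries, members called became 8 for Soshiho-tang at the high against the low dose. Against the vehicle they became 3 for Soshiho-tang at the low dose, 2 and 0 for Liriopis seu Ophiopogonis Tuber at the high and low dose, 1, 0 and 1 for Longan Arillus at the high, medium and low dose, and 1 for Zizyphi Semen at the low dose. Without the low-count filter they became 1 for Yijin-tang at the medium against the low dose, and against the vehicle 1 for Longan Arillus at the medium and 1 for Zizyphi Semen at the low dose. Scaling by total counts gave, against the vehicle, 2 for Soshiho-tang at the low dose and 1 and 0 for Schisandrae Fructus at the medium and low dose. DESeq2 gave 3 for Soshiho-tang at the low dose against the vehicle, and no adjusted p for 3 members (BCL2L11, BBC3 and BMF) for Liriopis seu Ophiopogonis Tuber at the high dose, so no count is given there. Counts over all genes in these fits are not given beside them, and the cause of these shifts was not tested.

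Replicate numbers were shared between groups, but same-numbered libraries deviated together (every correlation at least 0.1) in 1 of 30 comparisons only, Liriopis seu Ophiopogonis Tuber at the medium against the low dose, where the replicate block left 0 members called. The block brought BAK1 past the threshold for Soshiho-tang at the high against the low dose (0.20, adjusted p = 0.0482, edgeR) and changed no other member call. BBC3 rested on 6 to 61 reads per library.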
